A study of Mus musculus with 2 samples.

Results

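Single-cell RNA-seq of mouse spleen T cells was examined for 10 antiviral genes that type I interferon induces: Isg15, Usp18, Ifit1, Ifit3, Ifit3b, Oas1a, Oasl2, Rsad2, Mx1 and Rtp4. They were chosen by name with earlier results of these data known, and all 10 were among the 2000 genes in the files. The cells came from lethally irradiated WT BALB/c recipients that had been injected with spleen and bone marrow cells of WT C57BL/6 donors, a mouse model of haematopoietic cell transplantation. Recipients received either tacrolimus, an inhibitor of calcineurin, or a monoclonal antibody to IL-2, the cytokine that drives T cell expansion, from day 0 to day 6, and spleen cells were isolated on day 6 for droplet 5′ sequencing. Irradiation and the donor graft were common to both groups, no untreated recipient was analysed here, and the number of animals behind each library was not given in the sources used here. Each treatment was 1 library, so treatment and library cannot be told apart, no difference has a replicate check, and no test was made. Intervals in brackets are exact 95% binomial intervals that cover counting error only, and the limit given beside a count of 0 is 3 counts of the total.

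Type I interferons bind a receptor made of IFNAR1 and IFNAR2. Signalling from it leads to binding at the interferon-stimulated response element in promoters of the antiviral genes. ISG15 is a ubiquitin-like protein that is attached to other proteins, and USP18 removes it and also restrains the receptor. The IFIT proteins bind viral RNA, OAS1A makes the oligoadenylates that activate RNase L, OASL2 is a relative of the OAS enzymes, and RSAD2 (viperin) makes a nucleotide that stops viral RNA synthesis. MX1 is a GTPase that blocks influenza viruses and whose gene carries an inactivating deletion in most laboratory mouse strains, and RTP4 is an interferon-induced protein that restricts RNA viruses.

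The core of the response element was searched for in the promoters of the members. Whether it bears on their detection in the same cells was not tested. RefSeq promoter sequences (GRCm38.p6) matched 7 of the 10 members, and Usp18, Mx1 and Rtp4 had no entry. The letters GAAANNGAAA on either strand (TTTCNNTTTC where the other strand carries it), within the 250 bases before the start, were found in 6 of these 7 promoters, against 2.98% of 32851 RefSeq promoters and 4.77% of the 1781 promoters of genes in the files. The 6 are printed 5′ to 3′ on the strand of the gene, as 182 to 200 bases just before the annotated start, with every match in capitals: Isg15 at chr4:156200819-156201018 (minus strand), Oas1a at chr5:120907526-120907725 (minus), Rsad2 at chr12:26456453-26456652 (minus), Ifit1 at chr19:34640689-34640870 (plus), Ifit3 at chr19:34583329-34583528 (plus) and Ifit3b at chr19:34607757-34607956 (plus).
Isg15: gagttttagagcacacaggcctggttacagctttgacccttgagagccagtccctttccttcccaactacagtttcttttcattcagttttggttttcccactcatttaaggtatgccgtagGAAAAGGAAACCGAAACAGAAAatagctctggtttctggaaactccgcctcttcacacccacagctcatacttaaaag
Oas1a: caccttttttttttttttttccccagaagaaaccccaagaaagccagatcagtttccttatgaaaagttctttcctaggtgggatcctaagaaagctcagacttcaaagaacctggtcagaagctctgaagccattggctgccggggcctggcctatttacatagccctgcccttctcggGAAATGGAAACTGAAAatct
Rsad2: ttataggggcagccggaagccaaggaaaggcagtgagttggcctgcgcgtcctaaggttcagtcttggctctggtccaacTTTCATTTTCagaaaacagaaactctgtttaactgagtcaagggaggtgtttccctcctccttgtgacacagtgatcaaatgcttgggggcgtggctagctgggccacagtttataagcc
Ifit1: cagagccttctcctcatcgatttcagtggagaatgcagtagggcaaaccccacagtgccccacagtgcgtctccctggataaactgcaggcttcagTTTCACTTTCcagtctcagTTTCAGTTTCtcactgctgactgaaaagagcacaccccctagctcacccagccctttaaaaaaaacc
Ifit3: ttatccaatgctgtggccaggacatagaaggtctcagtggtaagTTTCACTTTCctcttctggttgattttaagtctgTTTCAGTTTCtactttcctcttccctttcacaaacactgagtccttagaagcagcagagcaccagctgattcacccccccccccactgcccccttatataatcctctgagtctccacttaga
Ifit3b: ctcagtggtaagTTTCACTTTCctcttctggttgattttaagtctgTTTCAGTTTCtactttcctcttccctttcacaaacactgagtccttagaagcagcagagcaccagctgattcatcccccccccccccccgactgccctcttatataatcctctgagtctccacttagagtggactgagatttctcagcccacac
Isg15 held 3 overlapping matches that covered 22 bases, Oas1a held 2 that covered 16 bases, and Rsad2 held 1. The pair in Ifit1 lay 19 bases apart, first base to first base. Ifit3 and Ifit3b, neighbours on chromosome 19 (GENCODE M21 spans 34583531 to 34588731 and 34607970 to 34613401), each held a pair 34 bases apart and shared a run of 119 identical bases. Reads of such near-identical genes may have been split or shared when the authors counted them, so the Ifit3 and Ifit3b values are uncertain as single genes, and Oas1a has the same limit towards Oas1g. No match was found for Oasl2 in this window.

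The anti-IL-2 file held 1551 cells and the tacrolimus file 1688, of which 1147 and 1411 were T cells with at least 200 detected genes. Detected means at least 1 UMI, a molecule counted once. Of 9 T cell markers, Cd5, Cd4, Cd8a and Cd8b1 were in the files and defined the T cells. The CD4 gate (Cd4 without Cd8a or Cd8b1) held 295 anti-IL-2 and 292 tacrolimus cells and the CD8 gate (Cd8a or Cd8b1 without Cd4) 746 and 994, while 90 and 92 cells carried both and 16 and 33 neither. T cells had a median of 12877 UMIs in the anti-IL-2 library (9872 in CD4 and 14665 in CD8 cells) and 13299 in the tacrolimus library (11447 and 14012). UMIs of the anti-IL-2 library were recovered from integrated values, and tacrolimus cells deeper than the anti-IL-2 cell of the same rank were thinned to its total before the libraries were compared (called depth-matched here). This lowered 59.7% of the tacrolimus T cells, 91.4% of those in the CD4 gate and 17.6% of those in the CD8 gate. It did not lower the deepest anti-IL-2 cells, so the libraries stayed unequal there, with a 95th percentile of 41658 UMIs against 30417 in the CD8 gate. A difference was counted when the share of cells with the gene differed by 1.5-fold or more and reached 5% in either group.

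The antiviral genes were detected in more T cells of the anti-IL-2 library. By the size rule 9 of the 10 members were in more anti-IL-2 T cells and 0 in fewer, where 9.79% of 940 genes at the minimum share were in more and 17.8% in fewer. In the CD4 gate it was 10 of 10 members (12.4% of 918 genes in more and 37% in fewer), and in the CD8 gate 7 of the 8 members at the minimum share (8.25% of 933 genes in more and 9.11% in fewer). The median log2 ratio of shares over the 10 members was 1.91 in all T cells, 2.48 in the CD4 gate and 1.52 in the CD8 gate, and over all genes at the minimum share it was -0.19, -0.31 and -0.13. With both libraries thinned to 6000 UMIs the CD8 count was 4, and with detection at 2 UMIs 5 members passed in all T cells and 3 in the CD8 gate. Differences between the gates in these ratios were not tested. In all T cells Ifit1, Ifit3, Ifit3b, Usp18, Rsad2 and Oasl2 reached the minimum share in the anti-IL-2 library only. In the CD4 gate Mx1 did so as well, and in the CD8 gate Ifit1, Ifit3, Ifit3b and Usp18 did. Such genes could not be counted as in fewer anti-IL-2 cells, so their calls were partly set by the filter. Because the members were chosen with earlier results of these data known, these counts are a description and no independent check.

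Isg15, the modifier itself, was the most widely detected member. Among 1147 anti-IL-2 T cells 594 carried it, 51.8% (48.9 to 54.7), and among 1411 tacrolimus T cells 458 did, 32.5% (30 to 35). The gap was wider in the CD4 gate, with 61.4% against 32.9%, than in the CD8 gate, with 46.2% against 30.6%, where the ratio of 1.51 lay at the edge of the rule. Usp18, which removes ISG15 from proteins, was in 16.3% (14.2 to 18.6) of anti-IL-2 and 4.61% (3.57 to 5.83) of tacrolimus T cells. In the CD4 gate Usp18 was in 22.4% against 4.11%, and in the CD8 gate in 12.9% against 4.23%. None of these intervals overlapped between the libraries.

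The RNA-binding IFIT genes were sparse in the tacrolimus library. The share of T cells with Ifit1 was 16.6% (14.5 to 18.8) against 4.32% (3.32 to 5.52), a ratio of 3.83. In CD4 cells Ifit1 was in 26.8% against 3.77%, a ratio of 7.11, and in CD8 cells in 11.1% against 4.12%, a ratio of 2.70. Ifit3 followed with 11.8% against 2.98% of all T cells. Ifit3b, at 9.59% (7.95 to 11.4) against 1.28% (0.758 to 2.01) of all T cells, had a ratio of 7.52. The CD4 cells again showed the wider gap, with Ifit3b in 17.3% against 1.71% and Ifit3 in 18.0% against 2.74%, and in CD8 cells these were 5.23% against 0.905% and 8.04% against 3.12%.

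The enzymes that act on nucleotides showed the same order of libraries. Oas1a was in 32.4% (29.7 to 35.2) of anti-IL-2 and 8.79% (7.36 to 10.4) of tacrolimus T cells, with 47.1% against 11.3% in the CD4 gate and 25.5% against 7.55% in the CD8 gate. Oasl2 was in 6.80% (5.41 to 8.41) against 1.49% (0.924 to 2.27) of T cells and in 15.6% against 2.74% of CD4 cells. Rsad2, the viperin gene, was in 7.76% (6.28 to 9.46) against 1.06% (0.596 to 1.75) of T cells. In the CD4 gate Rsad2 was carried by 41 of 295 cells, 13.9% (10.2 to 18.4), against 3 of 292 cells, 1.03% (0.212 to 2.97). In the CD8 gate neither Rsad2 (4.42% against 0.905%) nor Oasl2 (2.95% against 0.805%) reached the minimum share.

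Rtp4 was the second most widely detected member, in 39.7% (36.8 to 42.6) of anti-IL-2 and 19.3% (17.2 to 21.4) of tacrolimus T cells. It was in 56.9% against 23.3% of CD4 cells and 31.6% against 17.5% of CD8 cells. Mx1 was in 12.3% (10.4 to 14.3) against 8.22% (6.84 to 9.78) of T cells, just under the 1.5-fold rule, although the intervals did not overlap. Among CD4 cells Mx1 was in 12.2% (8.70 to 16.5) against 4.11% (2.14 to 7.07), and among CD8 cells in 11.9% (9.69 to 14.5) against 9.96% (8.17 to 12), where the intervals overlapped. The order of members by share began with Isg15 and Rtp4 in both libraries, each apart from its neighbour beyond counting error. After Oas1a, the neighbours Ifit1 and Usp18 in the anti-IL-2 library, and Oas1a and Mx1 in the tacrolimus library, had overlapping intervals.

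**Figure D1:**
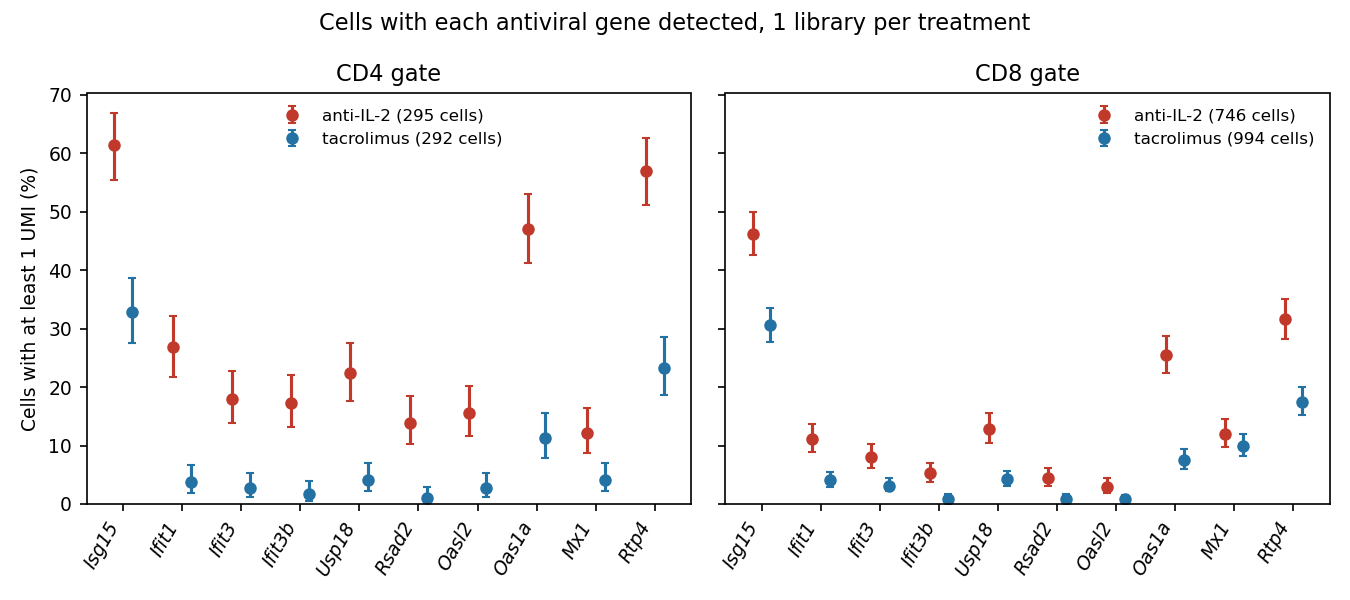
Cells in which each member was detected (vertical axis, % of cells) in the CD4 gate (left) and the CD8 gate (right), anti-IL-2 library in red and depth-matched tacrolimus library in blue. Points are shares of 1 library each and bars are exact 95% binomial intervals. The red points lie above the blue ones for all 10 genes in both gates, by the widest margins in the CD4 gate, and the intervals of Mx1 overlap in the CD8 gate.

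Genes of the same pathway outside the 10 differed between the libraries to a smaller extent. Since the 10 were chosen with earlier results of these data known, their larger difference is no independent result. Of 60 other interferon-stimulated genes listed, 24 were in the files and 21 reached the minimum share. In all T cells 4 of the 21 were in more anti-IL-2 cells: Slfn5 (14.9% against 3.90%), Ifi204 (8.81% against 3.26%), Ifit1bl1 (6.54% against 3.19%) and Rnf213 (39.7% against 25.8%). Ifitm2, one of the IFITM genes that hinder virus entry, was in fewer (13.5% against 22.7%). In the CD4 gate 8 of 21 were in more anti-IL-2 cells and 0 in fewer, the others being Cmpk2, Oas3, Lgals3bp and Ms4a4c, and in the CD8 gate 1 of 19 (Slfn5) was in more and 2 (Ifitm1 and Ifitm2) in fewer. Of all genes, 9.79% in all T cells, 12.4% in the CD4 gate and 8.25% in the CD8 gate were called higher after anti-IL-2. The shares called lower were 17.8%, 37% and 9.11%, so both CD8 counts were near the background. The median log2 ratio of the list's genes at the minimum share was 0.31 in all T cells, 0.40 in CD4 and 0.16 in CD8 cells, against -0.19, -0.31 and -0.13 over all such genes.

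Of 13 receptors, kinases and transcription factors listed, 3 were in the files. Irf7, a transcription factor that interferon itself induces, was in 58.1% against 39.1% of T cells and 61.7% against 31.8% of CD4 cells, and passed the rule in the CD4 gate. Socs1, an inhibitor of JAK kinases, did likewise with 52.9% against 31.5% of CD4 cells. Ifng was the 1 of 7 listed interferons in the files, so the transcripts of type I interferons were not analysed here. It was in 29.5% against 30.1% of T cells and in 14.9% against 26.0% of CD4 cells. Of 11 interferon-inducible GTPases in the files, 10 reached the minimum share. In more anti-IL-2 T cells were 5 (Gbp5, Iigp1, Irgm2, Tgtp1 and Tgtp2), with Tgtp2 at 19.5% against 10.6%. By the same rule 9.79% of all genes at the minimum share were in more. In the CD4 gate the same 5 of 10 were in more, where 12.4% of all genes were. In the CD8 gate it was 1 of 8 (Tgtp2), where 8.25% of all genes were. These GTPases also respond to interferon gamma. Tgtp1 and Tgtp2 are near-identical copies that may share reads.

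Most T cells carried few members, and a minority carried many. In the anti-IL-2 library 310 of 1147 T cells had 0 members detected, 288 had 1 and 206 had 2, while 343 cells, 29.9% (27.3 to 32.6), had 3 or more. In the depth-matched tacrolimus library 135 of 1411 T cells, 9.57% (8.08 to 11.2), had 3 or more, and 9.85% before thinning. Cells with 5 or more members made up 12.5% (10.6 to 14.5) against 2.34% (1.62 to 3.27), and cells with 6 or more 8.63% (7.07 to 10.4) against 0.921% (0.491 to 1.57). The mean number of members per cell was 2.05 against 0.845. With every cell thinned to 6000 UMIs, the shares with 3 or more members were lower in both, 17.2% (15 to 19.6) against 4.29% (3.28 to 5.51), and with detection at 2 UMIs they were 11.2% against 2.13%.

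The CD4 gate held the wider difference. Of anti-IL-2 CD4 cells 45.8% (40 to 51.6) had 3 or more members, against 10.6% (7.33 to 14.7) of tacrolimus CD4 cells. In the CD8 gate it was 21.7% (18.8 to 24.9) against 8.75% (7.07 to 10.7). With every cell at 6000 UMIs the shares were 33.0% (27.3 to 39.0) against 8.21% (5.28 to 12.1) in the CD4 gate and 9.84% (7.74 to 12.3) against 3.46% (2.39 to 4.82) in the CD8 gate. The cells that carried both Cd4 and a Cd8 gene, which can be 2 cells in 1 droplet since no doublet caller was run, had shares of 46.7% (36.1 to 57.5) and 13.0% (6.93 to 21.7). Cells with 8 or more members numbered 44 in the anti-IL-2 library, 24 of them in the CD4 gate, and 4 in the tacrolimus library, where the CD4 gate had 0 in 292 cells (3 counts would be 1.03%).

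**Figure D2:**
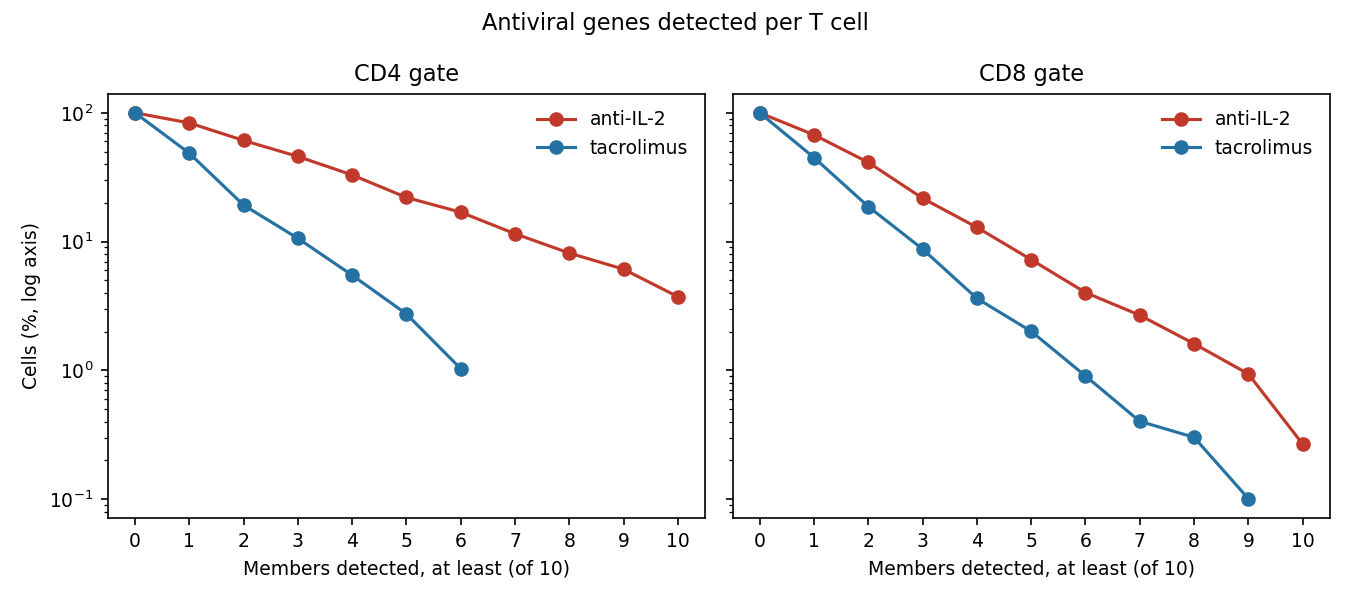
Share of cells (vertical log axis, %) with at least the number of members on the horizontal axis, in the CD4 gate (left) and the CD8 gate (right), anti-IL-2 library in red and depth-matched tacrolimus library in blue. At 3 members the lines stand at 45.8% and 10.6% in the CD4 gate and at 21.7% and 8.75% in the CD8 gate, and the tacrolimus CD4 line ends at 6 members.

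The UMIs of the members were held by few cells in both libraries. The 5% of T cells with the most member UMIs held 35.6% (34.3 to 37.0) of 4930 member UMIs in the anti-IL-2 library, that is, 57 cells held 1757 UMIs. The tacrolimus top 5%, 70 cells, held 43.8% (41.7 to 45.9) of 2136 member UMIs. Concentration was thus higher where fewer cells carried any member UMI, since 27.0% of anti-IL-2 and 52.8% of tacrolimus T cells had none. The cells with at least 3 members held 78.6% of the anti-IL-2 and 55.6% of the tacrolimus member UMIs. The intervals of the top 5% treat each UMI as independent. UMIs cluster in cells and the top cells were picked by them, so these intervals are too narrow.

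**Figure D3:**
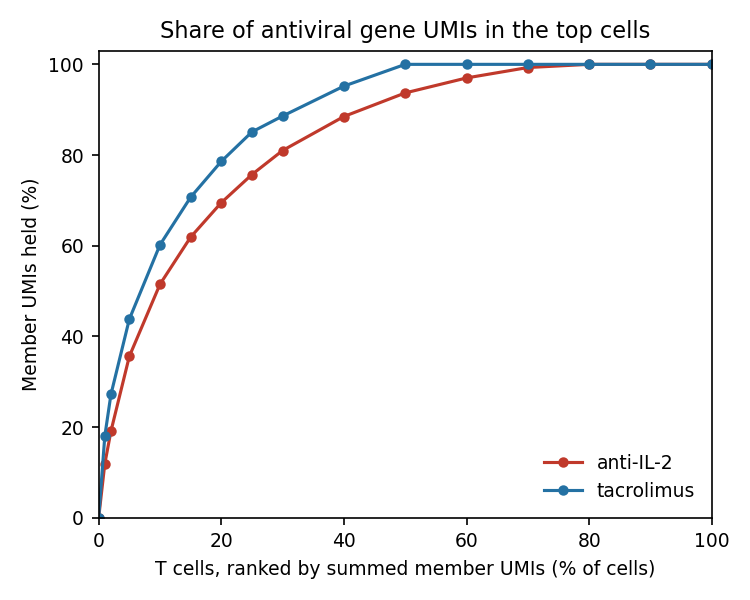
Percent of all member UMIs (vertical axis) held by the T cells with the most, ranked from high to low (horizontal axis, % of cells), anti-IL-2 library in red and depth-matched tacrolimus library in blue. The tacrolimus line lies above the anti-IL-2 line up to 70% of cells, with 43.8% against 35.6% of UMIs in the top 5% of cells and 60.2% against 51.5% in the top 10%.

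The members differed in how often they were found alone. Among the 288 anti-IL-2 cells with exactly 1 member, that member was Isg15 in 53.1%, Rtp4 in 18.1% and Oas1a in 16.7%. It was Ifit3 in 0 of these 288 cells, which allows up to 1.04%, and Oasl2 in 0.347%. In the 391 tacrolimus cells with exactly 1 member it was Isg15 in 58.8%, Rtp4 in 17.4%, Mx1 in 10.5% and Oas1a in 9.72%. Among the 99 anti-IL-2 cells with 6 or more members, Isg15 was in 100%, Rtp4 in 97.0%, Oas1a in 85.9%, Ifit1 in 82.8%, Ifit3 in 81.8%, Rsad2 in 52.5% and Oasl2 in 49.5%. The widely detected genes were thus the ones found alone, and the IFIT genes, Rsad2 and Oasl2 were mostly found with others. More widely detected genes are more often found alone for any set of genes, and this was not adjusted for.

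Each member was detected more often in cells that carried another member. Within 3 equal groups of cells by UMI total, the share of cells with 1 member was higher in cells with a second than in cells without it for all 90 ordered pairs in the anti-IL-2 library, by a median ratio of 4.22 (1.57 to 10.2). Over ordered pairs of 581 other genes with shares in the same range the median was 1.09. All 90 ordered pairs of the tacrolimus library also had ratios above 1, with a median of 5.02 against 1.06 for pairs of 571 other genes. These pairs share cells and are not independent. Isg15, being the commonest, had the lowest ratios: it was in 76.6% of anti-IL-2 cells with Mx1 and 48.3% of those without. For the neighbours Ifit3 and Ifit3b, 8 of 18 tacrolimus cells with Ifit3b had Ifit3, 44.4%, against 35 of the 1393 without Ifit3b, a pair whose near-identical sequence can share reads. Rsad2, on chromosome 12, was in 14 of the 278 tacrolimus cells with Rtp4 (chromosome 16), 5.04%, and in 1 of the 1133 without.

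**Figure D4:**
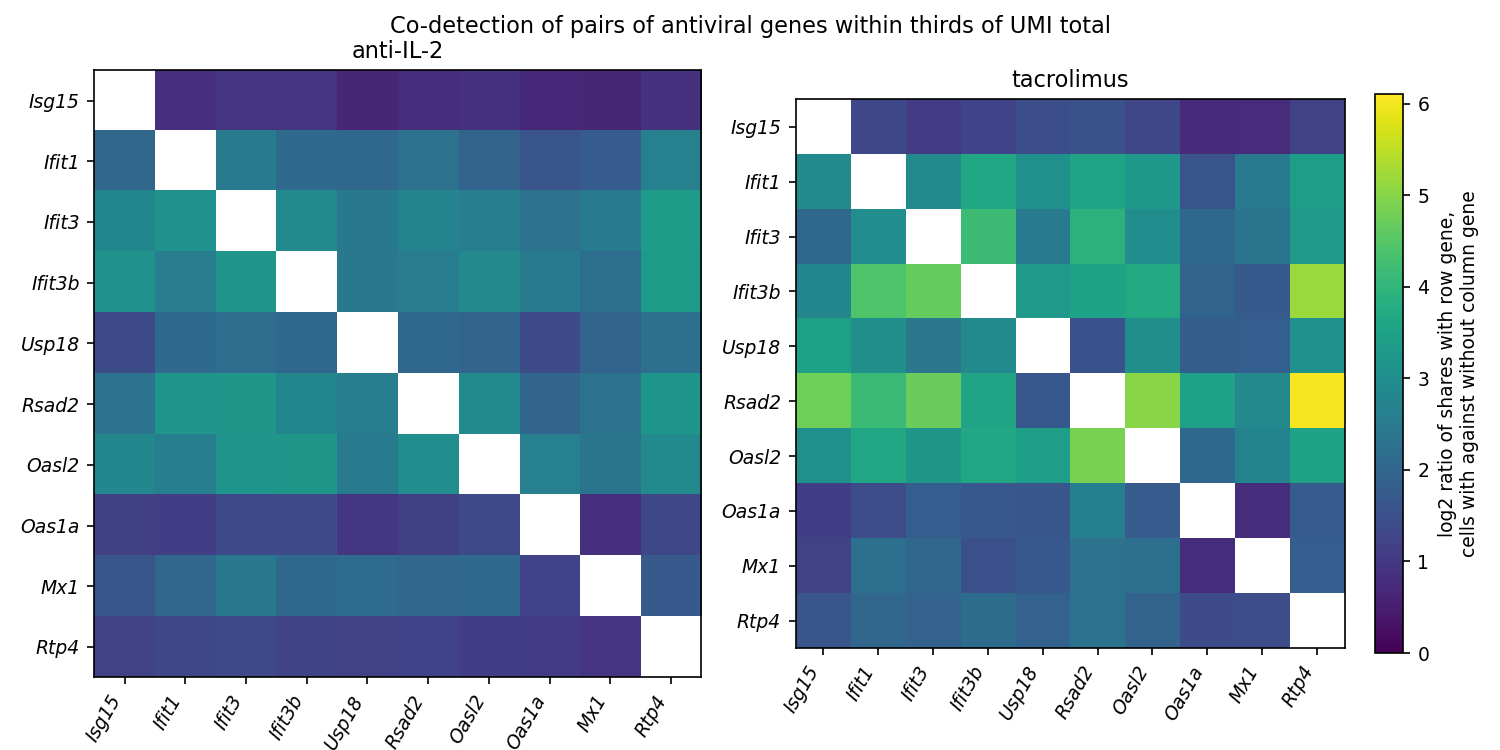
Co-detection of ordered pairs of members in T cells of the anti-IL-2 library (left) and the tacrolimus library (right). Colour gives the log2 ratio of the share of cells with the row gene in cells with the column gene against cells without it, within 3 groups of UMI total. All squares are above 0, the Isg15 row is the darkest because many cells without the column gene also carry Isg15, and the brightest tacrolimus squares belong to Rsad2 and Ifit3b, which rest on 15 and 18 cells.

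The genes most often found with the members came in part from the same response. T cells with at least 3 members were set against T cells with 0, within gates and 3 groups of UMI total, and genes in 2 to 50% of T cells were ranked by the odds ratio. In the anti-IL-2 library the first 10 were Oasl1, Tgtp1, Bace2, Pydc4, Ramp2, Ifit1bl1, H2-Ob, Il18bp, Iigp1 and Slfn5, of which 5 were on the lists of interferon-induced genes. The first 10 of the tacrolimus library, of which 4 were on those lists, included Nsg2, Ifit1bl1, Il6ra, Slfn5, Tcf7, Pydc4, Irf7, Ccr7 and Rnf213. The share of list genes among all genes ranked, 736 in the anti-IL-2 and 647 in the tacrolimus library, is not given here. Ifit1bl1, an IFIT relative, and Slfn5 and Pydc4 stood among the first 10 in both. Pydc4 was in 58.0% of anti-IL-2 cells with 3 or more members and 8.71% of those with 0, and in 38.1% and 6.56% in the tacrolimus library. Oasl1 was in 6.41% of the anti-IL-2 cells with 3 or more members and in 0 of the 310 with none, which allows up to 0.968%.

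Most measured genes of the pathway followed the members from cell to cell. Of other interferon-stimulated genes in at least 2% of T cells, 19 of 22 in the anti-IL-2 library and 18 of 21 in the tacrolimus library had an odds ratio of 1.5 or more, with medians of 4.25 and 3.87 against 0.863 and 0.845 over all genes in at least 2% of T cells. Irf7 was in 84.0% of anti-IL-2 cells with 3 or more members and 37.4% of those with 0 (odds ratio 8.78), and in 74.8% and 28.4% in the tacrolimus library (8.6). The GTPases had 9 of 10 and 9 of 9 at 1.5 or more, with medians of 4.04 and 2.89. The share of all genes at 1.5 or more is not given here, so these counts have no background beside them. Ifng went the other way, in 21.6% against 32.3% of anti-IL-2 cells (odds ratio 0.675) and 20.1% against 34.3% of tacrolimus cells (0.511). Ifitm1 and Ifitm2 had odds ratios of 0.577 and 0.540 in the anti-IL-2 library.

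CD4 and CD8 cells of the same library were compared after thinning every gated cell to 6000 UMIs, because CD8 cells held more UMIs. In the anti-IL-2 library 9 of 10 members were in more CD4 than CD8 cells, where 17.9% of 836 genes were. Ifit3, Ifit3b, Rsad2 and Oasl2 reached the minimum share only in the CD4 gate, so the rule could not count them as in fewer CD4 cells. Cells with 3 or more members made up 86 of 264 CD4 cells, 32.6% (27.0 to 38.6), and 70 of 701 CD8 cells, 9.99% (7.87 to 12.4). Oasl2 was in 9.47% (6.22 to 13.7) against 0.999% (0.402 to 2.05), and Isg15 in 47.0% against 27.5%. Oas1a was in 34.8% against 13.0% and Rtp4 in 44.3% against 16.1%. Among non-dividing cells the shares with 3 or more members were 39.9% (33.1 to 47.0) and 19.8% (15.3 to 24.9), and 8 of 10 members passed.

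Fewer members passed between the gates of the tacrolimus library. Of the 4 members at the minimum share, Oas1a (7.14% against 3.98%) and Rtp4 (19.6% against 10.9%) were in more CD4 than CD8 cells, where 12.2% of 823 genes were, and without thinning 1 member was. Mx1 was in fewer, 2.50% (1.01 to 5.08) against 5.35% (4.01 to 6.97), where 9.72% of genes were in fewer. Cells with 3 or more members made up 6.43% (3.85 to 9.97) of CD4 and 3.88% (2.75 to 5.31) of CD8 cells, with overlapping intervals. In the comparison of the libraries at the same depth, these tacrolimus shares were 8.21% (5.28 to 12.1) and 3.46% (2.39 to 4.82). Those intervals did not overlap. The overlap thus varied between the thinned sets, and the difference between the gates was not tested.

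Cells in division carried fewer members. Dividing was defined as 3 or more of 10 division genes such as Mki67 and Top2a. In the anti-IL-2 library all 10 members were in fewer dividing than non-dividing cells, where 16.4% of 827 genes were, and 0 in more, where 36.9% were. Ifit1, Ifit3, Ifit3b, Rsad2, Oasl2 and Mx1 reached the minimum share only among non-dividing cells, so the rule could not count them as in more dividing cells. Of 474 dividing cells 18 had 3 or more members, 3.8% (2.27 to 5.94), and of 491 non-dividing cells 138 did, 28.1% (24.2 to 32.3). Isg15 was in 21.3% (17.7 to 25.3) of dividing and 44.0% (39.5 to 48.5) of non-dividing cells, Rtp4 in 9.49% against 37.7%, and Ifit1 in 2.95% against 17.1%. The order was the same inside each gate, with 8.20% against 39.9% in CD4 cells and 3.15% against 19.8% in CD8 cells.

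In the tacrolimus library the 6 members at the minimum share were all in fewer dividing cells, where 9.77% of 809 genes were (33.7% were in more). Of these, Ifit1, Usp18, Oas1a and Mx1 reached that share only among non-dividing cells, so the rule could not count them as in more dividing cells. The share with 3 or more members was 3.09% (2.09 to 4.38) of 971 dividing cells, and its interval overlapped that of the dividing anti-IL-2 cells. Without thinning the intervals did not overlap, with 17.2% (14.1 to 20.6) of dividing anti-IL-2 and 8.29% (6.69 to 10.1) of dividing tacrolimus cells, at median totals of 18597 and 14682 UMIs. Of 263 non-dividing cells 9.51% (6.25 to 13.7) had 3 or more. Rtp4 was in 9.17% against 26.6% and Isg15 in 17.5% against 29.3%. With Mki67 alone as the sign of division 3 members passed, and with detection at 2 UMIs 2 did, against 3 in the anti-IL-2 library.

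Cells in which Tcf7 was detected carried more members. Tcf7 encodes TCF-1, a transcription factor that naive and memory T cells keep and effector cells lose. In the anti-IL-2 library all 10 members were in more Tcf7-detected cells, where 15.9% of 828 genes were. Ifit3, Ifit3b, Rsad2, Oasl2 and Mx1 reached the minimum share only among Tcf7-detected cells, so the rule could not count them as in fewer. Cells with 3 or more members made up 110 of 320 Tcf7-detected cells, 34.4% (29.2 to 39.9), and 46 of 645 others, 7.13% (5.27 to 9.4). Oas1a was in 35.0% (29.8 to 40.5) against 11% (8.70 to 13.7), Rsad2 in 11.9% against 1.24% and Ifit3b in 13.1% against 1.86%. The shares with 3 or more were 45.2% against 10.4% in the CD4 gate and 22.4% against 6.56% in the CD8 gate.

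In the tacrolimus library 50 of the gated cells at this depth had Tcf7 detected and 1184 had not. All 8 members at the minimum share were in more Tcf7-detected cells, where 15.7% of 841 genes were. Ifit1, Ifit3, Ifit3b, Usp18, Oas1a and Mx1 reached that share only among the 50 Tcf7-detected cells, Ifit3b with 3 of them. The rule could not count these genes as in fewer. Of the 50, 10 had 3 or more members, 20% (10 to 33.7), against 45 of 1184, 3.8% (2.79 to 5.05). Rtp4 was in 46.0% (31.8 to 60.7) against 11.5% (9.73 to 13.4), and Isg15 in 38.0% against 19.3%. The 10 cells with 3 or more members are few, so the single genes in this group have wide intervals, such as 5 of 50 cells for Ifit1 (3.33 to 21.8%). With detection at 2 UMIs 6 members passed in the anti-IL-2 library and 3 in the tacrolimus library.

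Gate, division and Tcf7 overlapped, so the cells were split by all 3. The highest share with 3 or more members was that of non-dividing CD4 cells with Tcf7, at 72 of 151, 47.7% (39.5 to 56.0), in the anti-IL-2 library and 7 of 23, 30.4% (13.2 to 52.9), in the tacrolimus library. That class made up 15.6% of the gated anti-IL-2 cells and 1.86% of the gated tacrolimus cells, and held 46.2% of all anti-IL-2 cells with 3 or more members. Non-dividing CD8 cells with Tcf7 followed in the anti-IL-2 library with 30.6% (22.1 to 40.2) of 108 cells, and held 1 of 7 tacrolimus cells. The lowest shares among large classes were those of dividing CD8 cells without Tcf7, 3.25% (1.69 to 5.61) of 369 after anti-IL-2 and 2.92% (1.86 to 4.35) of 787 after tacrolimus. That class made up 38.2% and 63.8% of the gated cells.

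Within each of the 8 classes the intervals of the libraries overlapped. At 6000 UMIs the anti-IL-2 share was the higher in 6 classes and the lower in dividing CD4 cells without Tcf7 (2.27% against 3.05%) and dividing CD8 cells with Tcf7 (1 of 44 against 2 of 10). Without thinning it was the higher in all 8, with 13.3% against 6.01% and 28.9% against 25% in those 2 classes. Over all gated cells at 6000 UMIs, 3 or more members were found in 16.2% (anti-IL-2) and 4.46% (tacrolimus). With the anti-IL-2 class shares applied to the class makeup of the tacrolimus library the value was 6.43%, and with the tacrolimus class shares applied to the anti-IL-2 makeup it was 10.3%. At equal class makeup the values to compare were 16.2% against 10.3%, or 6.43% against 4.46%. Without thinning the 4 values, in the order first given, were 28.5%, 9.49%, 15.8% and 17.3%. The tacrolimus class shares behind the 10.3% rest in part on few cells, such as 7 of 23 and 1 of 7, and no interval was computed. What class makeup contributes to the difference between the libraries was not tested.

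**Figure D5:**
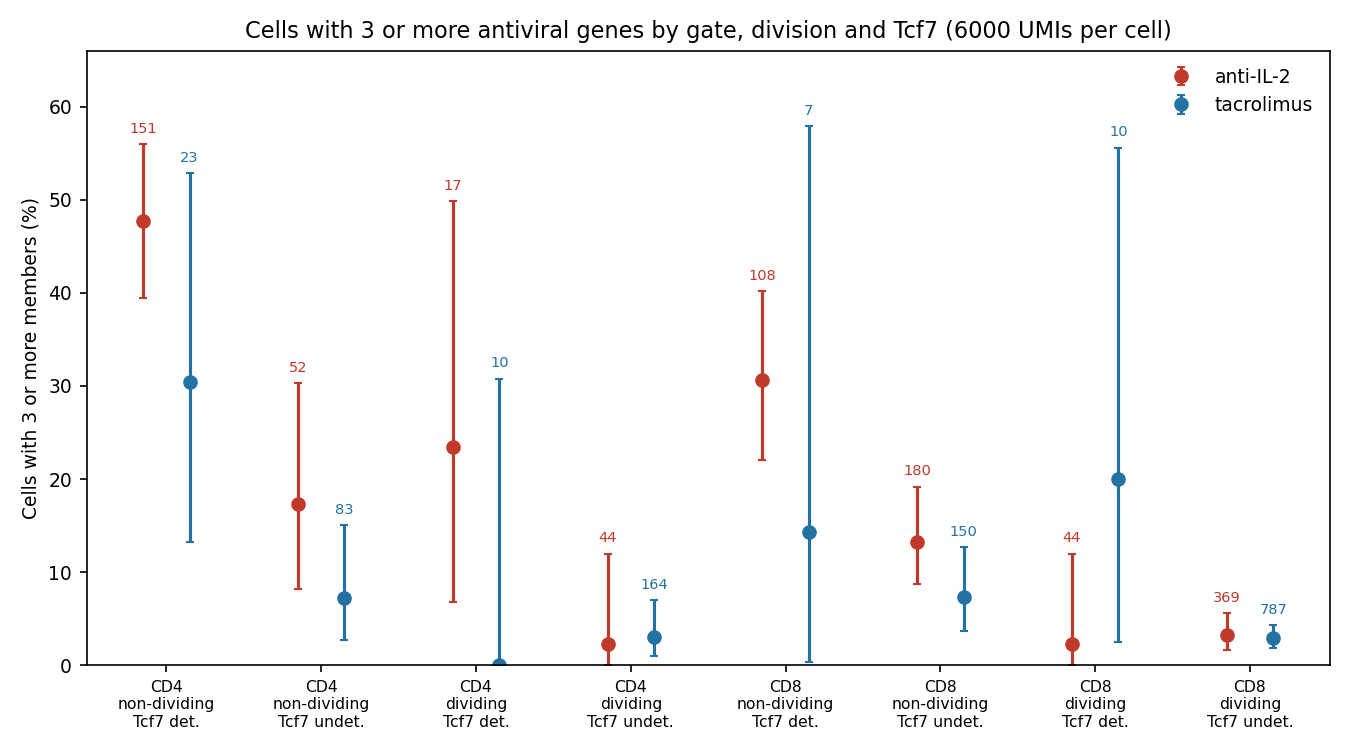
Share of cells with 3 or more members (vertical axis, %) in the 8 classes of gate, division and Tcf7 detection, each cell thinned to 6000 UMIs, anti-IL-2 library in red and tacrolimus library in blue. Bars are exact 95% binomial intervals and the numbers above them are cells. The highest points are the non-dividing CD4 cells with Tcf7, 47.7% and 30.4%, and the intervals of the libraries overlap in every class.

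The 99 anti-IL-2 cells with 6 or more members had the same makeup in sharper form. Of them 50 were in the CD4 gate, 30 in the CD8 gate and 19 carried both, Tcf7 was detected in 84.8% (76.2 to 91.3) and 18.2% (11.1 to 27.2) were dividing, before thinning. Of the 310 cells with 0 members 49 were in the CD4 gate and 243 in the CD8 gate, 24.2% (19.5 to 29.4) had Tcf7 and 67.7% (62.2 to 72.9) were dividing. Their median UMI totals were 12032 and 12804. The 14 tacrolimus cells with 6 or more members, before thinning, had 9 in the CD8 gate and 3 in the CD4 gate, 28.6% (8.39 to 58.1) with Tcf7, against 3.28% (2.11 to 4.84) of the 732 with 0.

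Other cell types also carried the members. Cells with 2 or more of 14 markers of B, plasma, erythroid, myeloid or antigen-presenting cells had been left out of the T cells, 75 in the anti-IL-2 and 48 in the tacrolimus library. Of these 42.7% (31.3 to 54.6) and 33.3% (20.4 to 48.4) had 3 or more members, and Isg15 was in 70.7% and 70.8%, so no cell type here served as a measure of free RNA. Within the anti-IL-2 T cells, 9.04% (6.22 to 12.6) of those with 3 or more members and 6.45% (3.99 to 9.79) of those with 0 carried 1 of the 14 markers, at 0.0823 and 0.0431 UMIs per 10000. In the tacrolimus library it was 5.76% (2.52 to 11) and 5.46% (3.93 to 7.37), at 0.366 and 0.0494 UMIs per 10000. Ms4a1, Hba-a2, Csf1r, S100a8 and S100a9 were in 0 of the 343 anti-IL-2 T cells with 3 or more members, which allows up to 0.875%, and H2-Ab1 was in 3.79% of these and 0.645% of the cells with 0. At least 1 of 7 exocrine pancreas genes was in 3.21% and 1.61% of those anti-IL-2 cells and in 69.1% and 64.6% of the tacrolimus cells. The part of other cells in these results was not tested.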

How the data were processed

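Reads were processed with Cell Ranger 3.1.0 and Seurat on mm10, per the submitters' processing notes, and the filter on cells was not stated there. The authors deposited natural log values of 2000 genes, scaled to 50000 per cell. Tacrolimus values gave whole UMIs in 100% of cases (tolerance 0.001). Anti-IL-2 values (13.9% below 0, 42.0% exactly 0) looked like values integrated across libraries, a step inferred from the values alone, so UMI totals were fitted and each gene's shift, taken as shared by 30 nearest cells, was removed, and a value above 0.5 of 1 UMI was a detection. Some fitted totals above 40000 may be too high, which would raise the UMIs recovered in those cells. The tacrolimus file repeated 308 anti-IL-2 columns, which were used once, and the libraries shared 4 other barcodes. The procedure was also run on a simulated pair made from the tacrolimus cells, with known changes added, and integrated with Seurat 5.3.0. How well UMIs were recovered there is not reported here. The design allowed for no test: 1 library per treatment. Cells with 200 or more genes were kept; the 14 markers that left out non-T cells were chosen after seeing values. The 10th percentile of UMI totals, rounded down, set the fixed depth of 6000, which left out 76 anti-IL-2 and 52 tacrolimus gated cells. Members and lists were chosen with earlier results of these data known. Named genes are all members, list genes past the size rule, and the 10 with the highest depth- and gate-stratified odds ratios per library; Cd4, Cd8a and Cd8b1, which define the strata, were left out of that ranking. Some genes that the lists or the ranking hold are not reported here. Analyses used Python 3.11.15, numpy 2.4.6 and scipy 1.17.1. Alternatives covered the shift, depth, detection level, filters, gates and call rule.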

Additional observations from a re-analysis of the deposited data

Results flagged for a closer look

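Mx1 went opposite ways between the gates in the 2 libraries. At 6000 UMIs per cell the ratio of its share in CD4 cells to that in CD8 cells was 1.48 in the anti-IL-2 library (7.58% against 5.14%) and 0.468 in the tacrolimus library (2.50% against 5.35%). The difference between these ratios was not tested, since each rests on 1 library, and the anti-IL-2 intervals of the gates overlapped (4.69 to 11.5 and 3.62 to 7.04).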

How the results depend on the processing

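All 385 recomputed log2 ratios of members between the libraries kept their sign over the 11 planned and 2 added alternatives that bear on these ratios, where a member was detected in both libraries. Of these, 18 no longer met the size rule and 8 newly met it; Isg15 in the CD8 gate and in all T cells lay close to it. With detection at 2 UMIs the members in more anti-IL-2 cells numbered 5 in all T cells and 3 in the CD8 gate, the shares of cells with 3 or more members were 11.2% and 2.13% (anti-IL-2 and tacrolimus), and the top 5% of cells held 45.1% and 61.6% of member UMIs. At that level 3 (anti-IL-2) and 2 (tacrolimus) members were in fewer dividing cells, and 6 and 3 in more Tcf7-detected cells. With both libraries at 1 fixed depth 4 members were in more anti-IL-2 CD8 cells, the shares with 3 or more were 17.2% and 4.29%, and the top 5% held 37.0% and 47.2%. Only 226 anti-IL-2 T cells had a directly read total; among them 41.2% had 3 or more members against 7.65% of depth-matched tacrolimus cells, and the top 5% held 25.1%. With the shift left in, the top 5% of anti-IL-2 cells held 33.0%. With the repeated anti-IL-2 columns counted as tacrolimus cells, 12.7% of those had 3 or more. Without thinning 1 member was in more tacrolimus CD4 than CD8 cells, and with Mki67 alone 3 members were in fewer dividing tacrolimus cells. The other 116 of 138 recomputed counts and shares stayed within 1.5-fold or within counting error. Some of these could not change, such as the anti-IL-2 shares under another seed, since those cells were not thinned in the main comparison. The alternatives without cells above 40000 UMIs and with gated cells alone were chosen after seeing the data. The causes of these shifts were not tested. The depth limits what can be read of Rsad2, Ifit3b and Oasl2 in tacrolimus cells, which rest on 15, 18 and 21 cells. No paired analysis was possible because each treatment was 1 library.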

Other observations

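Genes of T cell state were looked up beside the members after their values were seen, with no rule behind the choice. Id3, a regulator of naive and memory T cells, was found in 53.6% of the anti-IL-2 cells that had 3 or more members and 18.7% of those that had 0, and in 18.7% and 4.23% in the tacrolimus library. Cxcr5, a receptor for B cell follicles, was in 32.7% and 4.84% of anti-IL-2 cells and 8.63% and 0.137% of tacrolimus cells. Ccr7, which guides cells to lymph nodes, was in 28.9% against 9.35% of anti-IL-2 cells and 10.8% against 1.5% of tacrolimus cells. Gzmb, a cytotoxic granule protease, went the other way, in 61.8% of anti-IL-2 cells with 3 or more members and 90.3% of those with 0, and in 82.0% against 98.0% of tacrolimus cells. Il2ra, the high-affinity IL-2 receptor chain, was in 12.5% against 24.8% and 23.7% against 38.8%. Tox, a transcription factor of chronically stimulated T cells, was at similar shares in both, 72.9% against 77.4% and 31.7% against 36.1%. These shares are not matched for gate, division or depth.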
